A study of Mus musculus with 12 samples.

Results

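Mouse malignant peripheral nerve sheath tumours that had been treated with palbociclib plus mirdametinib and taken at the terminal stage were compared with vehicle-treated tumours taken at the same stage. The comparison used the 4 libraries whose titles begin with Combo and the 4 whose titles begin with Veh, 8 of the 12 tumours sequenced, and all genes. Treated mice received 100 mg/kg palbociclib and 1 mg/kg mirdametinib by daily gavage, and the controls received the vehicle the same way. In all 12 tumours the labels give the strain as C57B/6 and the genotype as WT. An adenovirus had carried a Cas9 system against Nf1 and against a gene spelled Cdk2na in the labels, taken here to be Cdkn2a, in vehicle and treated tumours alike. The other 4 tumours had the same drugs and were taken while regressing; they entered the model to estimate spread. The series design speaks of vehicle, sensitive and resistant tumours without saying whether the terminal group is the resistant one. Libraries are called vehicle 1 to 4 and terminal 1 to 4.

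Loss of neurofibromin, the Nf1 product, leaves RAS active longer and drives the RAF, MEK and ERK kinase cascade, which induces D-type cyclins. D cyclins bind CDK4 and CDK6 and phosphorylate the retinoblastoma protein RB, which frees E2F factors to switch on the genes of DNA replication. The Cdkn2a product p16 blocks CDK4 and CDK6. Palbociclib inhibits those kinases and mirdametinib inhibits MEK, so RNA of E2F targets and of ERK-induced genes reads out both drug targets. Tumours are mixtures of cells, and in bulk RNA fewer cells of a type and less RNA per cell cannot be told apart.

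Counted reads per library ran from 14181703 to 22639625 in the vehicle group and from 17926102 to 19804633 in the terminal group. A count of 0 allows at most 0.133 to 0.212 CPM (counts scaled to a common library size, with a correction for composition) in these 8 libraries. Titles of vehicle 1, vehicle 2 and terminal 1 end in FFT, which the sources used here do not explain, and this ending was treated as a possible batch. Whether each tumour came from its own mouse is not in the labels, so p-values reflect only the spread among these 8 tumours and the 4 regressing ones, which may be technical. The targeted genes overlapped between groups, with Nf1 at 10.2 to 22.1 CPM in vehicle and 12.2 to 23.8 CPM in terminal tumours and Cdkn2a at 5.08 to 244.2 and 21.2 to 257.3 CPM. Editing itself cannot be read from gene-level counts.

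Across the genome no gene passed adjustment in edgeR, and DESeq2 called 14. Of 15650 genes tested with the edgeR quasi-likelihood model, 0 (0%) passed a Benjamini-Hochberg adjusted p of 0.05, and the smallest adjusted p was 0.831. At an unadjusted p under 0.05 there were 521 genes with higher values in terminal tumours (3.33%) and 404 with lower values (2.58%), where 782.5 in all would be expected from the threshold alone. In 189 genes (1.21%) every terminal tumour lay above every vehicle tumour, and in 203 (1.3%) every one lay below. The median log2 difference over all genes was 0.0022, and 49.6% of genes had a lower value. The DESeq2 calls (0.0895% of genes) were 9 higher and 5 lower, and 12 of the 14 had groups that did not overlap. A choice by small p favours such separation. The median over genes of the SD of log2 CPM was 0.382 in vehicle and 0.434 in terminal tumours.

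The gene with the smallest p was H2afx (ENSMUSG00000049932, chromosome 9, 44334694 to 44336077, GRCm38), which encodes the histone variant that is phosphorylated around DNA breaks. Its levels were 52.4, 86.33, 73.31 and 57.76 CPM in vehicle tumours 1 to 4 and 27.49, 34.61, 34.12 and 25.27 CPM in terminal tumours 1 to 4. All 4 terminal tumours lay below the lowest vehicle tumour. The log2 difference was -1.15 (SE 0.2, edgeR unadjusted p 9.131e-05, DESeq2 adjusted p 0.00247). Rmi2 (chromosome 16, 10835059 to 10892966), a subunit of the complex that dissolves recombination intermediates, was at 2.395, 2.93, 2.644 and 3.267 CPM in vehicle and 1.075, 0.7744, 1.075 and 0.5134 CPM in terminal tumours, again without overlap. That was a log2 difference of -1.7 (SE 0.34, DESeq2 adjusted p 0.00528). The other genes of the 10 with the smallest p and lower values were Tmem40, Cdk5rap1, Snrpa1, the non-coding transcript 2010204K13Rik, Arhgef39, Arxes2, Dek and Hs3st3a1, with log2 differences from -2.32 to -0.6 apart from Hs3st3a1, for which no fold is given. Snrpa1, a component of the U2 splicing particle, held within narrow bounds, at 33.79 to 38.68 CPM in vehicle and 20.91 to 26.69 CPM in terminal tumours. Cdk5rap1, which modifies mitochondrial transfer RNA, was at 10.61, 23.3, 23.59 and 18.9 CPM against 8.855, 5.897, 7.919 and 6.846 CPM, and Dek, a chromatin protein abundant in dividing cells, at 66.32 to 88.71 against 43.24 to 56.51 CPM. In 9 of these 10 genes the groups did not overlap, against 1.3% of all genes lower in that way. The 10 were ranked by p on these same tumours, so that count follows largely from the choice. The exception, Hs3st3a1, was at 2.65 and 5.08 CPM in vehicle 1 and 4. In every other vehicle and terminal tumour it was at or under the level that a count of 0 allows. In the regressing tumours Hs3st3a1 was at 0.771 to 1.63 CPM.

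Genes with the smallest p and higher values included Fam32a, Bmp6, Mfsd6, Ccn2, Ephx1, Pla2r1, Rnf181, Prr33 and Plin5. The groups did not overlap in any of these, against 1.21% of all genes higher in that way. That separation too follows largely from ranking by p on the same tumours. Ccn2 (chromosome 10, 24595442 to 24598683), a secreted matricellular protein and a familiar target of YAP and TGF-beta signalling, was at 203.0, 94.3, 81.8 and 104.1 CPM in vehicle tumours 1 to 4. In terminal tumours 1 to 4 it was at 583.4, 326.9, 245.3 and 267.2 CPM, a log2 difference of 1.56 (SE 0.37, DESeq2 adjusted p 0.043). Terminal 1 was highest, and genes of chromosome 10 as a whole had a median of 0.575 log2 above the 12-tumour median in that tumour; without it the difference was 1.21. Ccn1, another YAP target of this family, was at 77.1 to 525.6 CPM in vehicle and 55.7 to 136.9 CPM in terminal tumours. Bmp6, a bone morphogenetic protein ligand, was at 1.43 to 2.22 CPM in vehicle and 3.63 to 7.5 CPM in terminal tumours. Ephx1, the microsomal epoxide hydrolase, was at 21.6, 14.2, 9.0 and 17.3 CPM against 75.1, 137.8, 24.8 and 38.9 CPM (log2 difference 2.15, SE 0.52). Fam32a was close to even within each group, at 46.8 to 59.5 CPM in vehicle and 79.4 to 108.4 CPM in terminal tumours, and Pla2r1, a phospholipase A2 receptor, was at 5.13 to 10.8 against 13.7 to 31.8 CPM. Prr33 and Plin5, a lipid droplet protein of fat-burning tissues, were highest in terminal 2 at 15.8 and 2.56 CPM, and terminal 2 also had the highest skeletal muscle score, given below.

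**Figure D1:**
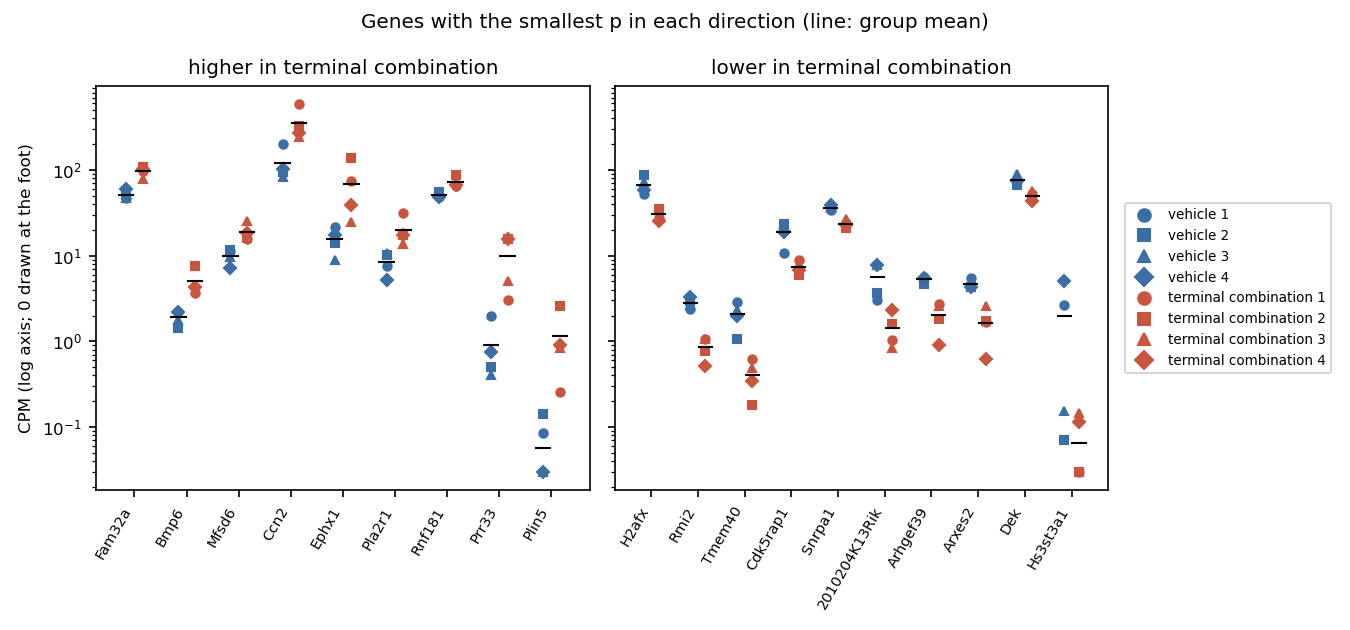
CPM on a log axis for genes of smallest p in each direction, vehicle tumours in blue and terminal tumours in red, with the group mean as a line and values of 0 drawn at the foot of the axis. In every gene drawn except Hs3st3a1, no red point reaches the range of the blue points. The genes were chosen by p from these same tumours, which favours such separation.

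DESeq2 also called 3 genes whose levels came mainly from terminal 2 and 4, named here after their values were seen. Fmo2, a flavin monooxygenase, was at 1.075, 131.9, 14.47 and 68.4 CPM in terminal tumours 1 to 4 and at 0.864 to 4.86 CPM in vehicle tumours. Pcdhgb4, a clustered protocadherin, was at 23.23 and 22.31 CPM in terminal 2 and 4 and at 0.0978 to 0.768 CPM in the other 6 tumours. Serpina3m, a serine protease inhibitor with many near-identical neighbours among which reads may be shared, was at 2.32 and 2.91 CPM in the same tumours and had 0 counts in all vehicle tumours.

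Genes of the dividing cell stood lower in terminal tumours as whole lists, though no member passed adjustment over all genes. All 30 tested E2F targets, which act from G1 into S phase, had a lower mean, with 13 at an unadjusted p under 0.05 and 6 without overlap between groups, and the median log2 difference was -0.73. All 26 genes of G2 and mitosis had a lower mean too, 12 of them at an unadjusted p under 0.05 and 5 without overlap, with a median of -0.9. Both counts at that p stand against 2.58% of all genes, and the counts without overlap against 1.3%. The E2F scores (mean log2 CPM of the list) were 5.46, 5.51, 6.04 and 6.01 in vehicle tumours and 5.13, 4.51, 5.62 and 4.5 in terminal tumours. Mitosis scores were 5.82, 5.73, 6.215 and 6.073 against 5.292, 4.601, 5.785 and 4.007. Terminal 3 lay within the vehicle range on both lists, terminal 1 below it, and terminal 2 and 4 lowest. Vehicle 1 and 2, whose titles end in FFT, scored lower on both lists than vehicle 3 and 4, whose titles do not. Terminal 3 lacks the ending too and lay below vehicle 3 and 4 on both lists.

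Promoters of these lists are shown for 2 sequence elements known from cell cycle genes, the E2F site read by E2F factors and the cell cycle homology region (CHR) read by the DREAM and MuvB complexes. RefSeq promoters of 300 bases around the start (GRCm38.p6) were present for 23 of the 30 and 22 of the 26 tested members. The E2F forms TTTCCCGC, TTTCGCGC, TTTGCCGC and TTTGGCGC, searched on both strands, occurred in 9 of the 23, against 4.4% of tested genes and 2.26% of all promoters. The CHR forms TTTGAA and TTCGAA, searched likewise, occurred in 17 of the 22, against 16.7% of tested genes and 19.2% of all promoters. Members were listed as E2F targets or mitosis genes, so such an excess follows from that choice. It is no result about these tumours. The 2 members of each list with the smallest p among those holding a match follow, 5′ to 3′ on the gene's strand, with matches in capitals. Pola1 encodes the catalytic subunit of DNA polymerase alpha (chrX:93632106-93632405, minus strand) and Mcm5 a subunit of the replicative helicase (chr8:75109259-75109558, plus strand). Mki67 encodes the Ki-67 antigen (chr7:135716330-135716629, minus strand) and Cenpf a kinetochore protein (chr1:189688037-189688336, minus strand).
Pola1: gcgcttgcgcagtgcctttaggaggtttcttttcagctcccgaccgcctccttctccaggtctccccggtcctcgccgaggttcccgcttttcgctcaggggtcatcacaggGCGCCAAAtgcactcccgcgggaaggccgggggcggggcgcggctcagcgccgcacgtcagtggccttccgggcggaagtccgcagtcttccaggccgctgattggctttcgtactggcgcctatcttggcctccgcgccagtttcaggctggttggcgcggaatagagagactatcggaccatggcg
Mcm5: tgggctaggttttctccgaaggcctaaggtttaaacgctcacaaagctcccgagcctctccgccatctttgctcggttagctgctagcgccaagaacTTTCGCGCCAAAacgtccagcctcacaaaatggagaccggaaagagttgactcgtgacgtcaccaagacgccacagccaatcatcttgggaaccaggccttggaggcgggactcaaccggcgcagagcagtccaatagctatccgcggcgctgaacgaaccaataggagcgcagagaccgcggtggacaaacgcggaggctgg
Mki67: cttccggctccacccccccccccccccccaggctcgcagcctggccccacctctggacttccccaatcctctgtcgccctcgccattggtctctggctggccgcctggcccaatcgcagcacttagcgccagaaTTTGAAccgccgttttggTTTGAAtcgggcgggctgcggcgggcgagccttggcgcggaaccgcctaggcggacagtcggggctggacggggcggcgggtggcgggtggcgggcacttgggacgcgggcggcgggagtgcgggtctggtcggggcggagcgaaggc
Cenpf: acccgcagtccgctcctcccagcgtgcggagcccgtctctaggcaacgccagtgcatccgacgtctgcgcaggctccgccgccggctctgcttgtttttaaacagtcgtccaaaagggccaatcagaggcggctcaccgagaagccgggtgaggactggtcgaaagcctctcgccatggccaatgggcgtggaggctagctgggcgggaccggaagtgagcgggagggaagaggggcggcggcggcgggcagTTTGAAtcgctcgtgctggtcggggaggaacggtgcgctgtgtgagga

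Among E2F targets, Rfc4, a subunit of the clamp loader of DNA replication, was at 17.84, 19.22, 30.15 and 26.84 CPM in vehicle and 14.74, 10.19, 17.35 and 9.413 CPM in terminal tumours, without overlap (log2 difference -0.86, SE 0.29, edgeR unadjusted p 0.0121). Rrm2, the regulated subunit of ribonucleotide reductase and named after its values were seen, was at 65.4, 78.0, 164.4 and 93.2 CPM against 42.5, 25.0, 63.3 and 30.0 CPM. Pcna, the sliding clamp of DNA polymerases, was at 117.4 to 157.9 against 78.8 to 109.5 CPM. In all 3 the terminal group lay wholly below the vehicle group, with terminal 3 nearest to it. Of the promoters shown, Pola1 stood at 29.0, 28.1, 44.4 and 39.9 CPM against 17.0, 14.2, 30.1 and 18.0 CPM, and Mcm5 at 132.5 to 183.4 against 55.0 to 123.1 CPM. The helicase subunits Mcm2, Mcm4 and Mcm6 and the initiation factors Cdc45 and Cdt1 had overlapping groups. Ccne1 and Ccne2, the cyclins that carry CDK2 through G1, overlapped as well, and Ccne1 was highest of the 8 tumours in terminal 3, at 35.8 CPM, and lowest in terminal 4, at 6.79 CPM.

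Among mitosis genes, Mki67 (chromosome 7, 135689784 to 135716361) had the smallest p. It was at 109.2, 61.5, 169.1 and 152.8 CPM in vehicle and 58.2, 33.9, 76.4 and 25.0 CPM in terminal tumours (log2 difference -1.35, SE 0.4, edgeR unadjusted p 0.00617). The groups overlapped by terminal 3 and vehicle 2. Cenpf was at 49.96, 26.51, 56.43 and 44.99 against 22.57, 14.3, 31.43 and 6.903 CPM. Cenpa, the histone of the centromere, was at 51.3 to 62.0 against 20.9 to 40.6 CPM without overlap. The mitotic kinesins Kif20a and Kif23 and the anaphase activator Cdc20, chosen after their values were seen, had no overlap either. Top2a, the topoisomerase that disentangles chromosomes, had the widest ratio of highest to lowest terminal tumour among the 26 genes, at 149.7, 93.9, 312.8 and 48.1 CPM. Cdk1, also chosen after its values were seen, was the member nearest to no difference (log2 difference -0.45, SE 0.48), with the highest of all 8 values in terminal 1.

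Homologous recombination and Fanconi genes, which act on broken or crosslinked DNA in S phase, were also lower in all 16 tested members, with 1 at an unadjusted p under 0.05 (against 2.58% of all genes), none without overlap (against 1.3%) and a median of -0.85. Fanci, a Fanconi complex subunit, was at 12.19, 11.65, 22.67 and 18.61 CPM in vehicle and 7.013, 3.634, 17.35 and 2.909 CPM in terminal tumours, with terminal 3 inside the vehicle range.

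How many division genes passed an unadjusted p rested on single tumours. Leaving out terminal 3 raised the counts to 22 of 30 E2F targets and 24 of 26 mitosis genes. Leaving out terminal 2 or terminal 4 left 2 and 4, and leaving out vehicle 3 or vehicle 4 left 3 and 6. Skeletal muscle RNA ran opposite to these lists in some tumours and not in others. The muscle score was 8.82, 4.55, 6.3 and 7.16 in vehicle tumours and 7.09, 10.1, 8.88 and 9.6 in terminal tumours, highest in terminal 2 and 4, where division scores were lowest. Vehicle 1 and terminal 3 had close muscle scores and close mitosis scores. Vehicle 4 and terminal 1 had close muscle scores as well, 7.16 and 7.09, but mitosis scores of 6.07 and 5.29 and E2F scores of 6.01 and 5.12. In each of these pairs the FFT title ending differed along with treatment, so the 2 cannot be told apart there. Among vehicle tumours, vehicle 2 had both the lowest muscle score and the lowest mitosis score. With a covariate for the muscle score, 28 of 30 and 25 of 26 genes still had lower values, and 0 and 2 were at an unadjusted p under 0.05. Without terminal 2 and 4 together 29 and 25 had lower values and 0 and 0 were at that p. The part of muscle in the difference was not tested beyond these fits.

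**Figure D2:**
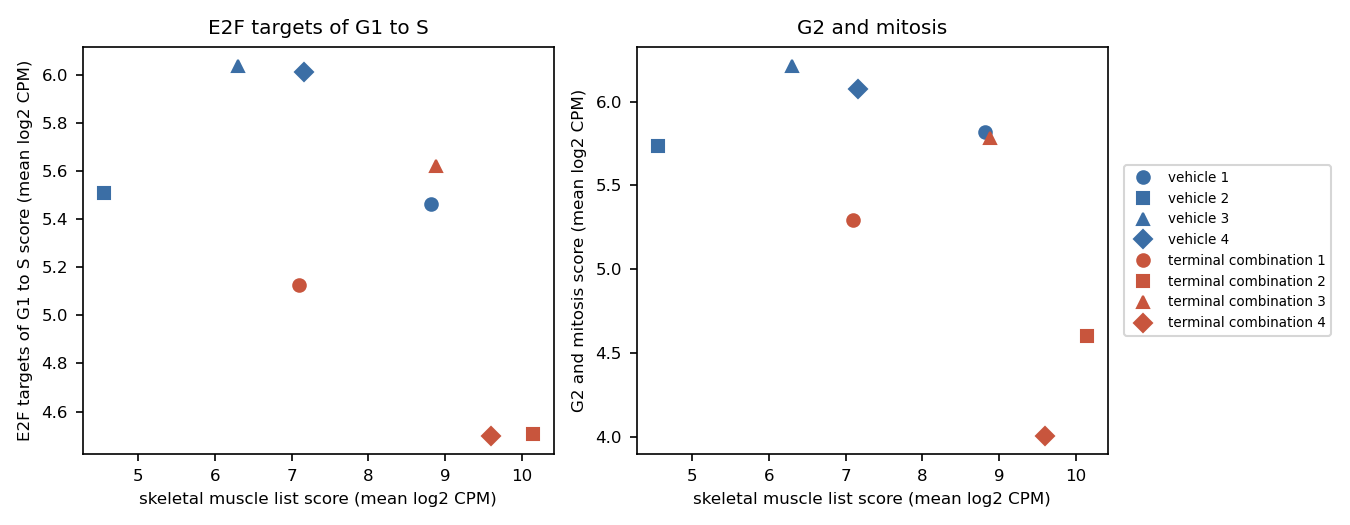
E2F target score and G2 and mitosis score (mean log2 CPM of each list) against the skeletal muscle score, one point per tumour. Terminal 2 and 4 lie at lower right, with muscle scores of 10.1 and 9.6 and the lowest division scores. Terminal 3 lies near vehicle 1.

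In the CDK4/6-RB pathway itself, the means of all 3 D cyclins were higher, 1 of them at an unadjusted p under 0.05, and none passed adjustment. Of 26 members 10 had higher and 16 lower means, with 2 each way at an unadjusted p under 0.05, against 3.33% of all genes higher and 2.58% lower. Ccnd2 (ENSMUSG00000000184, chromosome 6), cyclin D2, was at 146.0, 29.2, 169.3 and 87.3 CPM in vehicle and 215.4, 201.3, 304.4 and 245.0 CPM in terminal tumours. It was the 1 member of 26 whose groups did not overlap with higher values, against 1.21% of all genes (log2 difference 1.16, SE 0.48, edgeR unadjusted p 0.0338). Vehicle 2 was far below the other vehicle tumours, and without it the difference was 0.85. Ccnd1, cyclin D1 and the best-known ERK-induced cyclin, was at 638.9, 805.7, 293.1 and 912.8 CPM against 601.6, 1314, 1538 and 1013 CPM, so 3 of 4 terminal tumours lay above all vehicle tumours and terminal 1 within them. Cdk6 was at 57.4, 50.9, 58.6 and 69.0 against 55.0, 65.7, 94.8 and 127.6 CPM, highest in terminal 4. Cdk4 overlapped, at 350.4 to 506.8 against 268.2 to 545.8 CPM, as did Ccnd3 and Rb1.

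The inhibitors on the list did not move together. Cdkn2c, the CDK4/6 inhibitor p18 and itself an E2F target, was at 56.4, 67.7, 58.0 and 40.9 CPM in vehicle and 46.4, 36.2, 22.9 and 21.3 CPM in terminal tumours (log2 difference -0.82, SE 0.26, edgeR unadjusted p 0.00915). Rbl1, the RB relative p107 and another E2F target, was at 21.0 to 33.5 against 12.5 to 23.6 CPM. Cdkn2b, p15, was highest in terminal 2 at 338.1 CPM and otherwise at 31.0 to 169.0 CPM. Cdkn1a, p21, and Cdkn1b, p27, overlapped.

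**Figure D3:**
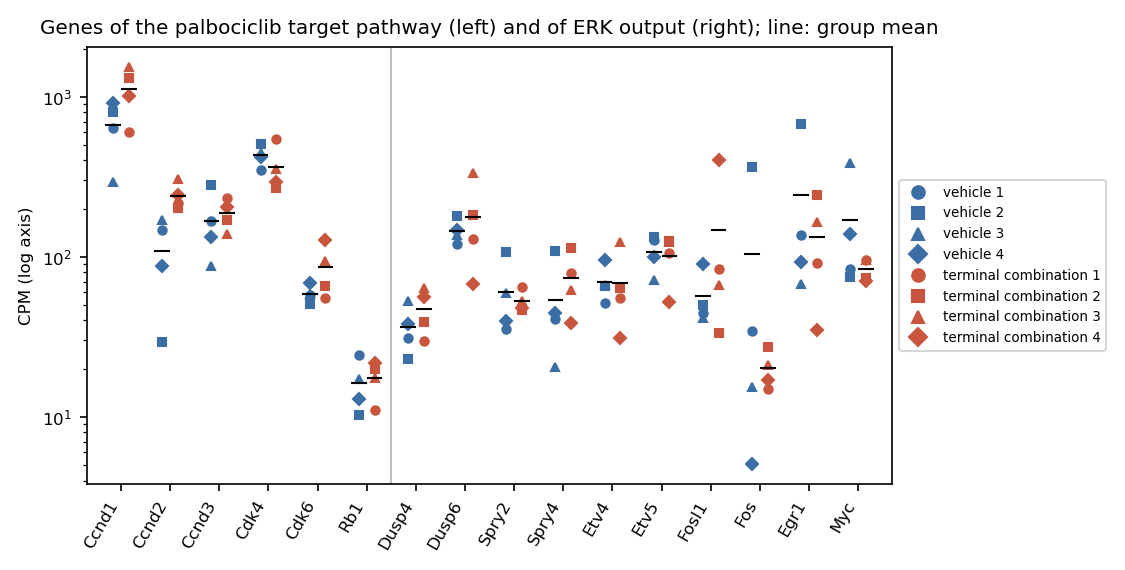
CPM on a log axis for genes of the CDK4/6-RB pathway, left of the grey line, and of ERK output, right of it, with vehicle tumours in blue, terminal tumours in red and group means as lines. Ccnd2 is the gene whose red points all lie above the blue ones, and single tumours stand out for Fos, Egr1, Fosl1 and Myc.

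RNA of ERK-induced genes was not lower as a list in terminal tumours. Of 31 MEK-ERK output genes 15 had higher and 16 lower means, with a median of -0.03, 0 higher and 2 lower at an unadjusted p under 0.05 (against 3.33% and 2.58% of all genes), and none without overlap (against 1.21% and 1.3%). The scores were 5.34, 6.37, 5.34 and 5.38 in vehicle and 5.51, 5.82, 5.83 and 5.23 in terminal tumours. Dusp6, the ERK phosphatase most used as a MEK inhibitor readout, was at 119.8, 179.7, 136.3 and 147.1 CPM in vehicle and 130.0, 183.6, 332.3 and 67.3 CPM in terminal tumours. Terminal 3 was the highest and terminal 4 the lowest of the 8. The same order of terminal 3 above and terminal 4 below was seen for the ETS factor Etv4, at 124.5 and 31.1 CPM against 51.3 to 96.0 CPM in vehicle tumours. Spry2, Spry4, Dusp4 and Etv5, feedback inhibitors and targets of ERK, overlapped.

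Some members were high in a single tumour. Fos, an immediate early gene, was at 362.8 CPM in vehicle 2 and at 5.08 to 34.3 CPM in the other 7 tumours. Egr1 and Junb, chosen after their values were seen, were highest in vehicle 2 as well, at 676.1 and 328.5 CPM. The Fos log2 difference was -2.37 with all tumours, 0.14 without vehicle 2 and 1.09 among tumours lacking the FFT title ending, and 7 rather than 16 members had lower means without vehicle 2. Fosl1, which encodes the AP-1 subunit FRA1 and marks sustained ERK output, was at 405.3 CPM in terminal 4, where other tumours had 33.6 to 90.7 CPM; its log2 difference of 1.38 was 0.12 without terminal 4. Myc was at 384.0 CPM in vehicle 3 and 70.8 to 138.8 CPM elsewhere, and its difference of -1.02 was -0.24 without vehicle 3. Fosl1 lies in a stretch of neighbouring genes raised in terminal 4, described below.

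No kinase gene of the cascade passed adjustment. Of 27 genes for RAS, RAF, MEK, ERK and RAS regulators 19 had higher means, with a median of 0.05. At an unadjusted p under 0.05 were 1 higher and 0 lower (against 3.33% and 2.58% of all genes). None lacked overlap (against 1.21% and 1.3%). Map2k1 and Map2k2, the MEK genes, were at 67.3 to 106.6 against 56.2 to 99.4 CPM and at 144.5 to 188.1 against 166.8 to 225.3 CPM. Mapk3, which encodes ERK1, overlapped too. Araf, a RAF kinase and the one gene at that p, was at 44.1 to 49.8 CPM in vehicle and 55.4, 60.7, 79.1 and 46.1 CPM in terminal tumours (log2 difference 0.35, SE 0.16).

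Of 33 receptor tyrosine kinases and ligands, which can feed RAS from outside the cell, 23 had higher means, 2 higher and 2 lower at an unadjusted p under 0.05 (against 3.33% and 2.58% of all genes), and none had groups without overlap (against 1.21% and 1.3%). Ntrk2, the BDNF receptor TRKB, was at 2.1, 6.22, 0.508 and 4.26 CPM in vehicle and 21.9, 6.25, 3.76 and 20.02 CPM in terminal tumours, high in terminal 1 and 4. Fgf2, basic fibroblast growth factor, was at 21.1, 17.7, 7.32 and 8.75 against 63.8, 44.7, 10.1 and 25.6 CPM. It lies on chromosome 3, whose genes as a whole stood higher in vehicle 1 and terminal 1. Ephb2, an ephrin receptor, was at 69.7, 42.5, 25.3 and 49.4 CPM against 13.5, 16.5, 16.1 and 37.5 CPM, with 3 of 4 terminal tumours below all vehicle tumours. Erbb3, a neuregulin receptor, was at 37.0 CPM in vehicle 1 and 1.07 to 9.63 CPM elsewhere, and its log2 difference of -2.03 was -0.88 without that tumour. Egfr, Pdgfra, Pdgfrb, Met, Axl and Igf1r overlapped, and Pdgfra ranged over 77.0 to 1075 CPM across the 8 tumours.

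Other survival and stress pathways gave a few genes each. Tsc2, the GTPase activator that restrains mTORC1, was at 85.2, 79.1, 92.0 and 92.9 CPM in vehicle and 112.6, 114.2, 108.5 and 108.3 CPM in terminal tumours (log2 difference 0.34, SE 0.15). It was the single PI3K, AKT and mTOR gene of 23 without overlap, against 1.21% of all genes higher in that way. Among 19 p53 targets 13 had higher and 6 lower means, with log2 differences from -1.09 to 1.79 and overlapping scores. At an unadjusted p under 0.05 were 1 higher and 0 lower (against 3.33% and 2.58% of all genes). Only 1 lacked overlap (against 1.21% of all genes higher). Mdm2, the p53 ubiquitin ligase, was at 45.2 to 60.2 against 122.0, 93.9, 63.3 and 52.5 CPM. Mdm2 lies on chromosome 10, whose genes as a whole stood higher in terminal 1, its highest tumour. Phlda3, an AKT antagonist, was at 77.2 to 117.2 against 117.4 to 259.0 CPM. Of 20 unfolded protein and integrated stress response genes 11 had higher and 9 lower means, with a median of 0.06. The 2 at an unadjusted p under 0.05 (against 3.33% of all genes higher) were also the 2 without overlap (against 1.21%). They were Chac1 and Dnajb9. Chac1, a glutathione-degrading enzyme induced by ATF4, was at 5.69, 1.79, 4.32 and 5.78 CPM against 8.65, 18.7, 8.8 and 18.9 CPM. Dnajb9, a chaperone cofactor of the endoplasmic reticulum, was at 18.2 to 22.6 against 22.7 to 49.7 CPM. Chac1 was highest in the tumours with the highest muscle scores, and with that score as a covariate its log2 difference of 1.64 was 0.6. The 17 BCL2 family genes split 8 higher and 9 lower, and none was at an unadjusted p under 0.05 (against 3.33% and 2.58% of all genes).

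Of 11 polycomb genes 3 had higher and 8 lower means. At an unadjusted p under 0.05 were 2 paralogs, 1 each way (against 3.33% of all genes higher and 2.58% lower). Ezh2, the methyltransferase of PRC2 that dividing cells express and an E2F target, was at 30.8, 32.9, 34.3 and 39.5 CPM in vehicle and 21.6, 20.1, 27.3 and 20.5 CPM in terminal tumours. Ezh1, its paralog of resting cells, was at 33.3, 34.0, 31.0 and 29.9 against 47.9, 64.2, 39.8 and 38.0 CPM. The groups did not overlap for either gene, with log2 differences of -0.62 (SE 0.2) and 0.57 (SE 0.22). Of all genes 1.3% were lower and 1.21% higher in that way. Of 10 drug efflux transporters 6 had higher and 4 lower means. At that p were 2 higher and 0 lower, and none lacked overlap. Abcc5 was at 15.9 to 29.9 against 26.8 to 45.1 CPM. Abcb4, a phospholipid flippase, was at 1.46 to 6.03 against 3.84, 18.6, 6.75 and 18.0 CPM, highest in terminal 2 and 4, and its log2 difference of 1.94 was 0.47 with a muscle covariate. The multidrug transporters Abcb1b and Abcg2 differed by -0.05 and -0.09, and Abcb1a was at 15.6, 30.3, 4.89 and 13.6 CPM in terminal and 3.22 to 13.3 CPM in vehicle tumours.

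The labelled tumour type was checked against 19 Schwann lineage and neural crest genes. Of these 12 had higher and 7 lower means in terminal tumours. At an unadjusted p under 0.05 were 4 higher and 1 lower, against 3.33% and 2.58% of all genes. None lacked overlap, against 1.21% and 1.3% of all genes. Scores were 2.31, 2.75, 2.6 and 2.68 in vehicle and 2.83, 3.525, 2.73 and 3.585 in terminal tumours, highest in the 2 tumours with the highest muscle scores. Sox10, the lineage transcription factor, had at most 0.0856 CPM in vehicle tumours, under the level that a count of 0 allows, and 0, 0.7148, 2.102 and 0.4564 CPM in terminal tumours. S100b, a calcium-binding protein of Schwann cells, was at 3.12, 0.143, 0.254 and 0.467 CPM against 5.12, 8.99, 2.49 and 6.28 CPM. Mesenchymal genes were abundant in every tumour, with Col1a2, a type I collagen chain, at 4336 CPM or more. Of 24 matrix and fibroblast genes 14 had higher means, and Dcn, the proteoglycan decorin, was at 145.0, 466.0, 346.7 and 237.6 CPM in vehicle and 1067, 870.6, 303.5 and 1044 CPM in terminal tumours, above all vehicle values in 3 of 4. Timp2, an inhibitor of matrix metalloproteinases, was at 883.0 to 1656 against 2866, 2569, 1349 and 1382 CPM.

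Most immune lists had more members with lower than with higher means in terminal tumours, and none of their members passed adjustment. Of 10 immunoglobulin constant genes 9 had lower means, of 16 plasma cell markers 11, of 19 T cell markers 16 and of 11 immune checkpoint genes 9. Over all genes 49.6% had a lower value. On these 4 lists 0 members were lower at an unadjusted p under 0.05, against 2.58% of all genes. Ighg1, given below, was higher at that p. Mast cell markers went the other way, with 9 of 11 higher means and a median of 0.72. However, none was at an unadjusted p under 0.05 (against 3.33% of all genes higher) and none lacked overlap (against 1.21%). Their scores overlapped, at 0.424 to 3.465 in vehicle and 0.742 to 4.278 in terminal tumours. Other chemokines had 10 of 19 higher means, with 0 higher and 2 lower at an unadjusted p under 0.05 (against 3.33% and 2.58% of all genes). Lymphoid chemokines split 4 and 4. Igkc, the kappa constant gene, was at 9.67, 7.43, 2.39 and 81.6 CPM in vehicle and 12.6, 4.11, 18.2 and 19.1 CPM in terminal tumours, where vehicle 4 was highest. Ighg1 was the exception among these genes, at 1.18, 0.179, 6.6 and 1.37 CPM in terminal and at most 0.299 CPM in vehicle tumours. Lag3, an inhibitory receptor of lymphocytes, was at 7.57, 9.79, 6.91 and 11.2 CPM against 2.71, 4.76, 4.3 and 5.88 CPM (log2 difference -1.01, SE 0.48). It was the single checkpoint gene of 11 without overlap, against 1.3% of all genes lower in that way. Cd274, PD-L1, was at 8.897, 2.358, 12.96 and 3.209 against 5.27, 1.79, 5.77 and 3.02 CPM. Ccl2, a monocyte chemokine, was at 528.6 and 281.6 CPM in terminal 1 and 4, at 21.4 and 16.8 CPM in terminal 2 and 3, and at 30.3 to 59.2 CPM in vehicle tumours.

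All 22 interferon response genes had lower means, with a median of -0.78. However, none was at an unadjusted p under 0.05 (against 2.58% of all genes) and none lacked overlap (against 1.3%). Irf7, an amplifier of the response chosen after its values were seen, was at 391.9, 37.9, 140.8 and 87.0 CPM in vehicle and 67.2, 29.8, 156.2 and 78.1 CPM in terminal tumours. Vehicle 1 had the highest score of the 8, 6.68, and without it 14 of 22 had lower means.

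Marker RNA of muscle and fat had higher means in the terminal group. Skeletal muscle list genes took 1.19%, 0.0686%, 0.364% and 0.359% of reads in vehicle tumours and 0.323%, 3.71%, 1.17% and 1.72% in terminal tumours, and 14 of 15 had higher means (6 at an unadjusted p under 0.05 against 3.33% of all genes, none without overlap against 1.21%). Ckm, muscle creatine kinase, was at 635.0, 59.5, 25.0 and 204.6 CPM against 329.8, 4550, 729.6 and 1272 CPM. Mitochondrial transcripts were at 0.562% to 0.982% of reads in vehicle and 0.785% to 1.49% in terminal tumours, highest in terminal 2. Of 11 adipocyte genes 10 had higher means, with Adipoq, adiponectin and chosen after its values were seen, at 0.0508 to 2.91 CPM in vehicle and 0.665, 9.17, 0.88 and 11.5 CPM in terminal tumours. Without terminal 2 and 4, 5 of the 11 adipocyte genes had higher means.

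The red blood cell score was higher in all 4 terminal tumours (4.52 to 6.37) than in any vehicle tumour (2.16 to 4.32). All 6 tested members had higher means, 5 at an unadjusted p under 0.05 against 3.33% of all genes, and 4 without overlap against 1.21%. Alas2, the haem synthesis enzyme of red cell precursors, was at 1.88, 1.5, 3.61 and 7.7 CPM in vehicle and 11.5, 9.89, 14.5 and 40.9 CPM in terminal tumours (log2 difference 2.38, SE 0.85, edgeR unadjusted p 0.017). Hbb-bs, an adult beta globin gene, was at 29.2, 25.3, 57.8 and 151.5 CPM against 161.2, 278.3, 171.7 and 451.6 CPM. Globin copies are nearly identical and may share reads, so their values are not independent of each other. The count at that p fell to 0 without terminal 4 and to 1 without vehicle 1, 2 or 3. Perfusion and blood content were not measured.

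**Figure D4:**
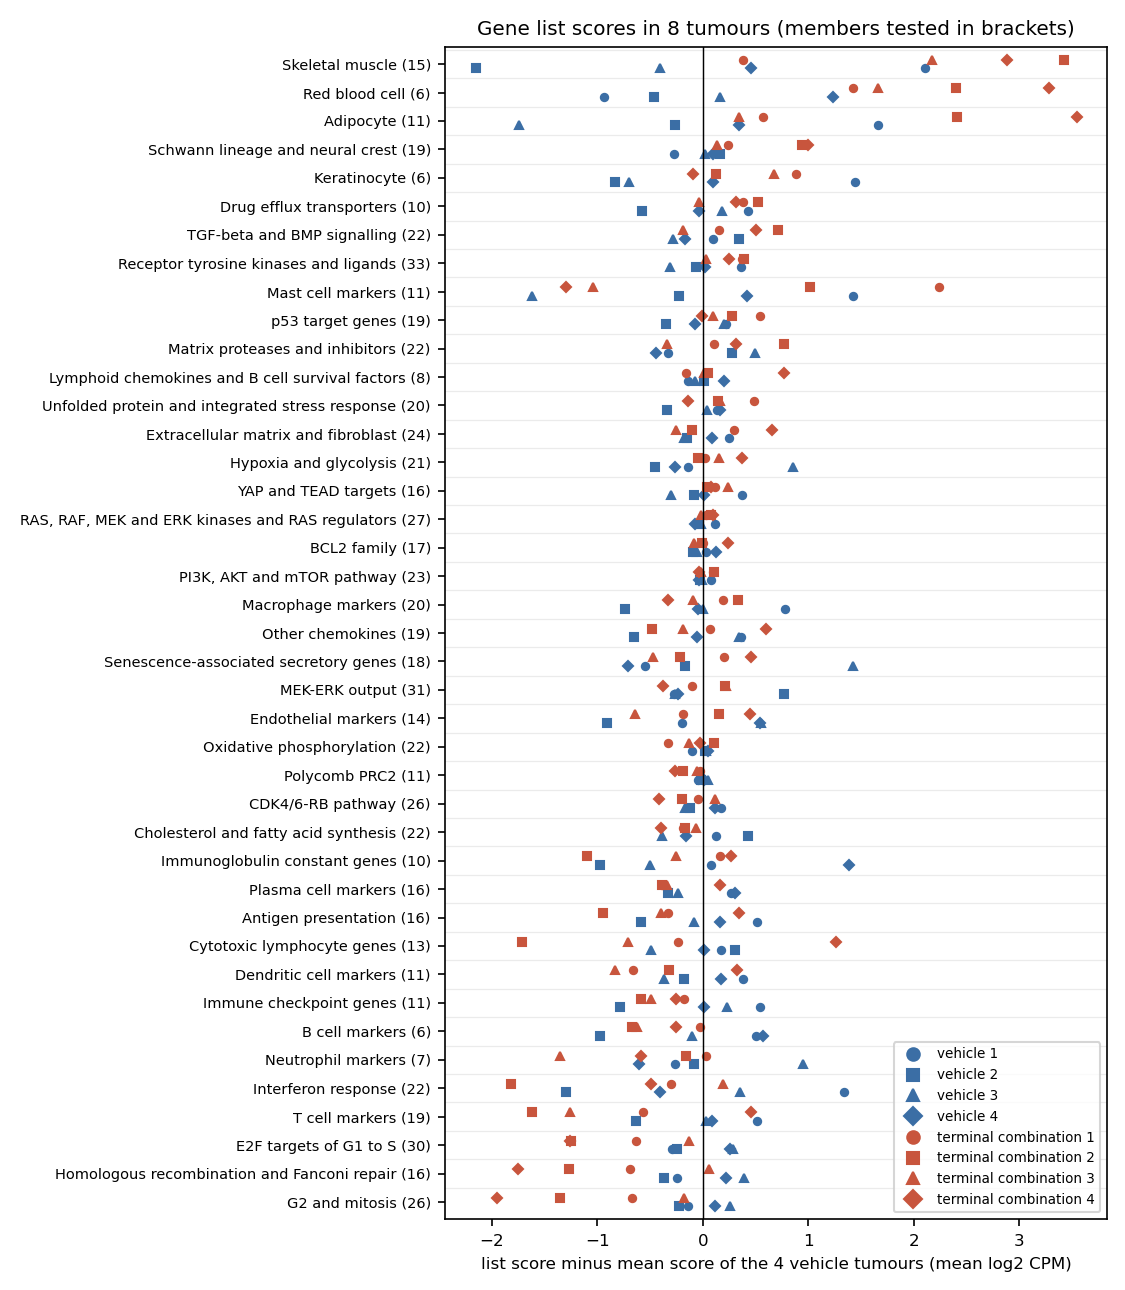
Score of each gene list (mean log2 CPM of tested members, number in brackets) in each of the 8 tumours minus the mean of the 4 vehicle tumours, vehicle in blue and terminal in red, ordered by the difference of group means. Division and repair lists sit at the foot, with terminal 2 and 4 at the far left, and muscle, red blood cell and adipocyte lists at the top.

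Some single-tumour values came from blocks of neighbouring genes raised together in one tumour, found by a rule set after the data were seen. In vehicle 3 a run of 28 genes on chromosome 4 (94567514 to 102607259, GRCm38) had a median of 3.19 log2 above the 12-tumour median, 9.14-fold, and 27 of the 28 were over 1 log2. Genes of that run named here were chosen after their values were seen. Jun, an AP-1 subunit, was at 2071 CPM in vehicle 3 and 157.9 to 273.3 CPM in the other 7 tumours, and Jak1, a cytokine receptor kinase, was at 6012 CPM against 195.5 to 277.2 CPM. In terminal 4, 2 runs lay close together on chromosome 19, 22 genes at 5422805 to 5802672 with a median of 2.3 log2 (4.94-fold) and 18 genes at 5877808 to 6300096 with a median of 2.29 (4.88-fold). They hold Fosl1, Rela, the NF-kB subunit p65, at 870.3 CPM against 95.04 to 159.1 CPM elsewhere, and Cfl1, the actin-severing protein cofilin, at 6853 CPM against 1019 to 1668 CPM. The 89 neighbouring genes outside these runs had a median of -0.58 in terminal 4, and 75 of them lay below the 12-tumour median. Some were raised like the runs, such as Sf3b2 at 2.28, Frmd8 at 3.06 and Rps6ka4 at 3.0 log2, while Ehd1 inside was at -0.61. Run edges come from a median over 5 neighbouring genes, so they do not mark exact borders. DNA copy number was not measured.

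**Figure D5:**
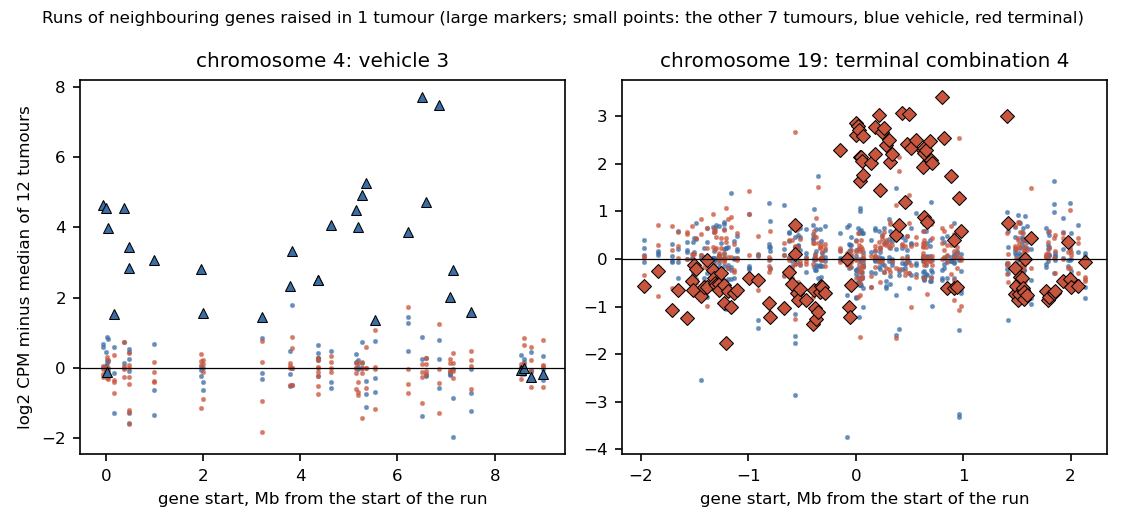
Log2 CPM of each gene minus its median over 12 tumours, plotted by distance in Mb from the start of the run, for chromosome 4 (vehicle 3, large blue triangles) and chromosome 19 (terminal 4, large red diamonds), with the other 7 tumours as small points. The raised block in vehicle 3 spans about 8.04 Mb, and the blocks in terminal 4 have a median near 2.29. Most neighbouring genes of terminal 4 lie lower, and a few, such as Frmd8 and Rps6ka4, stand as high.

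Whole chromosomes also stood apart in terminal 1, where the median gene was 0.595, 0.575 and 0.517 log2 above the 12-tumour median on chromosomes 3, 10 and 15. The highest chromosome median in terminal 2, 3 and 4 was 0.238, on chromosome 11 in terminal 3. Vehicle 1 had 0.37 on chromosome 3 and vehicle 2 had 0.41 on chromosome 19. Of the genes named above, Ccn2, Mdm2, Dcn and Cdk4 lie on chromosome 10 and Fgf2 on chromosome 3. Each of these was highest of the 8 tumours in terminal 1. Dusp6 and Erbb3 on chromosome 10 and Ccn1 on chromosome 3 were not. In terminal 1 Erbb3 was at 1.075 CPM and Ccn1 at 136.9 CPM, against 37.0 CPM in vehicle 1 and 525.6 CPM in vehicle 2. The genes given here are examples, not every named gene on these chromosomes.

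Against the regressing tumours, which had the same drugs but another harvest stage, 0 genes (0%) passed in edgeR and DESeq2 called 51 (0.326%), so the terminal group was not separated from them in edgeR either (smallest adjusted p 0.531, 1090 genes at an unadjusted p under 0.05). The 2 comparisons share the terminal tumours. H2afx was at 35.2 ± 5.91 CPM (SD, n = 4) in regressing, 30.4 ± 4.70 CPM in terminal and 67.45 ± 15.4 CPM in vehicle tumours. Its log2 difference of terminal from regressing tumours was -0.21 (edgeR unadjusted p 0.297). Rmi2 was at 2.27 ± 0.564 CPM in regressing and 0.8595 ± 0.2708 CPM in terminal tumours, a log2 difference of -1.39 (edgeR unadjusted p 0.00152). Ccn2 was at 168.1 ± 53.39 CPM in regressing and 355.7 ± 155.7 CPM in terminal tumours (edgeR unadjusted p 0.0127). H2afx, Rmi2 and Ccn2 were picked by their difference from vehicle, so these p-values follow a choice made on the same terminal values. Mean E2F scores were 5.19 in regressing and 4.94 in terminal tumours, and mean mitosis scores 5.07 and 4.92.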

How the data were processed

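The authors deposited whole-number read counts per gene for each tumour. Per the labels' protocols, RNA came from an RNeasy mini kit and libraries from a TruSeq Stranded mRNA kit, and the submitters' processing notes name HISAT2 2.2.1, Salmon, DESeq2 1.24.0 and the builds mm10 and GRCm38.p6. Which of these tools made the counts, and whether strand was used, is not given in the sources used here. Here, edgeR 4.0.16 (R 4.3.3; TMM, filterByExpr, robust quasi-likelihood F-test) was fitted to all 12 libraries, and p-values were Benjamini-Hochberg adjusted over 15650 genes with a threshold of 0.05. DESeq2 1.42.0 was an alternative. CPM used TMM-adjusted library sizes, and scores used a prior count of 2. SE is the absolute log2 difference over the square root of F. Total counts ranged from 14181703 to 22639625 in the 8 tumours compared, and the levels that a count of 0 allows (3 counts) cover counting error only. The fit was tested on simulated data. Members and gene lists were chosen with earlier results of these data known. Genes were named by 3 rules: the 10 with the smallest p in each direction, the 4 with the smallest p in each list, and a fixed set of drug target, lineage and immune genes. Other genes named were chosen after their values were seen. Alternatives changed the scaling, the filter, the tool, the libraries fitted, the FFT ending and a muscle covariate, or left tumours out. Some genes that these rules select are not reported here.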

Additional observations from a re-analysis of the deposited data

Results flagged for a closer look

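In 4 of 216 groups of 4 tumours examined (1.85%), 1 tumour lay far from the other 3 for the group's whole range; chance alone gives about 1 in 20. The MEK-ERK output score was 6.37 in vehicle 2 and 5.34 to 5.38 in the other vehicle tumours. Mapk3, the gene for ERK1, was at a log2 CPM of 8.03 in vehicle 2 and 7.09 to 7.22 in the others. Igf1r, a growth factor receptor gene, was at a log2 CPM of 6.54 in terminal 2 and 5.93 to 6.02 in the other terminal tumours. The plasma cell marker score was 2.82 in terminal 4 and 2.26 to 2.31 in the other terminal tumours.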

How the results depend on the processing

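No gene passed in any of the edgeR alternatives, and DESeq2 called 14 genes against vehicle and 51 against regressing tumours. Genes higher at an unadjusted p under 0.05 numbered 521, against 264 with the muscle covariate, 315 without terminal 2 and 4 together (added after seeing the data) and 324 to 782 when 1 tumour was left out. Genes lower at unadjusted p under 0.05 numbered 404, against 242, 152 and 217 to 822. For E2F targets the 13 became 0, 0 and 2 to 22. For mitosis genes the 12 became 2, 0 and 4 to 24, and 6 among tumours without the FFT ending. Among fits that left out 1 tumour, the lowest counts came without vehicle 3 (324 higher) or terminal 2 (217 lower) and the highest without terminal 3. The cause was not tested.

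Of 113 genes named, 104 kept their direction wherever it exceeded the SE. With the muscle covariate Cdk4 was at 0.124 (log2), and without terminal 2 and 4 Cdk4 was at 0.068, Adipoq at -0.75 and Cfl1 at -0.20. Among tumours without the FFT ending Fos was at 1.09, Egr1 at 0.88, Junb at 0.22 and Met at -0.14. When 1 tumour was left out, Fos ranged from -2.777 to 0.136, Egr1 from -1.321 to 0.431 and Junb from -0.961 to 0.137, each highest without vehicle 2. Jak1 ranged from -3.202 to 0.068, highest without vehicle 3. Cfl1 ranged from -0.183 to 1.278 and Rela from -0.018 to 1.664, lowest without terminal 4. Depth limits genes near the level that a count of 0 allows. No paired analysis was possible because the labels give no replicate numbers shared between groups.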
